A study of Homo sapiens with 2 samples.

Results

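The 10 genes described here belong to the stress response that is run by the transcription factor ATF4. They are ATF4 itself, ASNS, DDIT3, DDIT4, TRIB3, SESN2, CHAC1, ATF5, CEBPG and PPP1R15A, and they were taken by symbol from the 46427 rows of the deposited gene table, where all 10 have a row. The row CZ1P-ASNS, which overlaps ASNS, was read beside it. The study asked how cells of natural killer (NK) origin respond to PPMX-T003, an antibody against the transferrin receptor TfR1, through which cells take up iron bound to transferrin. NK92 is an established human NK cell line, which the study describes as derived from aggressive NK cell leukemia. It was grown in medium with 2% human serum for 18 h and divided into separate dishes. The PPMX-T003 group received 10 µg/mL of the antibody for 6 h and the unexposed group received nothing. Poly(A) RNA was sequenced from 1 library per condition, with 46766416 reads in the unexposed and 43178462 reads in the exposed library.

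In the gene table the libraries carry the names 0 h and 6 h, although by the methods both dishes stayed in culture equally long. The name 0 h was taken to mean the unexposed library, and if the harvest times did differ, time and antibody cannot be told apart. No difference given here has a replicate check, because each condition has 1 library, and no p-value is given. Scaled read levels (CPM) were scaled between the libraries by the trimmed mean of M-values, and fold changes are log2 ratios of the exposed to the unexposed library with a prior count of 2. The intervals are 95% Clopper-Pearson intervals on how the reads of a gene were divided between the libraries. They cover counting error only, and not differences between dishes.

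Transcripts that mark NK cells were present. All 12 NK markers examined had at least 20 reads summed over the libraries, among them the granule protein gene NKG7, the most abundant at 3215 and 3445 TPM (a level per transcript length) in the unexposed and exposed library. The summed level of the 12 markers was 4170.2 CPM in the unexposed and 4599 CPM in the exposed library, 7 of them had an interval above 0 and 3 below 0, and their median log2 fold change was 0.12. Of all genes tested, 21.8% had an interval above 0 and 23.9% below 0, and the median of the NK markers was 0.03 after removal of a fit on the length and GC content of transcripts. NKG7 (0.16), the cytotoxic granule genes GZMB (0.27) and GNLY (0.22) had the intervals farthest from 0. Of 7 T cell markers, CD3D, CD3G, CD8A and CD8B had 0 reads in both libraries and CD4 had 4 and 0. The T cell receptor constant genes TRBC1, at 330 and 385 TPM the most abundant of that list, and TRAC had reads, with log2 fold changes of 0.28 and -0.08, and the 7 markers summed to 110.4 and 125 CPM. Of the 3 B cell markers reported MS4A1 had 0 reads in both libraries and CD79B had 2 and 0, only CD79A (14 and 12 reads) was tested, with a log2 fold change of -0.09, and the sums were 0.342 and 0.278 CPM. The 5 myeloid markers summed to 8.29 and 9.50 CPM. Their most abundant gene S100A8 changed by -0.36 and the lysosomal gene CD68 by 0.62, CSF1R passed 2-fold at 22 and 9 reads (-1.02, interval -2.48 to 0.00), and CD14 had 0 and 7 reads. HBB, HBA1, ALB and APOA1, the 4 erythroid and liver markers, had 0 reads in both. The part of these differences in the values given below was not tested, and in bulk RNA fewer cells that express a gene and less of its RNA per cell cannot be told apart.

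The integrated stress response begins with kinases that phosphorylate the translation initiation factor eIF2. HRI, encoded by EIF2AK1, responds to lack of haem and to a mitochondrial relay through OMA1 and DELE1, PERK (EIF2AK3) to misfolded protein in the endoplasmic reticulum, GCN2 (EIF2AK4) to uncharged tRNA and PKR (EIF2AK2) to double-stranded RNA. Phosphorylated eIF2 slows protein synthesis in general while ATF4 protein is made in greater amount, through upstream reading frames in its mRNA. ATF4 pairs with other basic leucine zipper (bZIP) proteins on composite C/EBP-ATF sites and drives genes of amino acid supply, redox balance, growth arrest and recovery of translation. Because much of the control of ATF4 lies in translation, its mRNA level is not a measure of its protein.

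The core of such a composite site was searched in the promoter windows of RefSeq (GRCh38.p14), each of which spans 250 bases before to 50 bases after an annotated start. The motif was TGATGNAA, where N is any base, on either strand (TTNCATCA when read on the other strand), and no other motif was searched. All 10 genes matched a window by Gene ID, with 18 windows in all, and 3 genes (ASNS, CHAC1 and CEBPG) held 1 match each. The windows do not reach the outer start of every gene. For example, the span of TRIB3 begins at 380760 and its first window at 381045. A gene without a match may therefore hold a site outside its windows. Of all 27305 genes with a window 4.46% held the motif, over all 35116 windows 3.62% did, and of the 10157 tested genes with a window 2.78% did. The matches are shown with 11 bases on each side, 5′ to 3′ in the direction of the gene and with the motif in capitals, because these are the letters through which ATF4 and its partners are known to act on such genes. A match is only a description of the sequence.
ASNS, chr7:97872458-97872487, minus strand: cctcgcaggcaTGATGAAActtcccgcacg
CHAC1, chr15:40953251-40953280, plus strand: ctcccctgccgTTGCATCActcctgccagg
CEBPG, chr19:33374060-33374089, plus strand: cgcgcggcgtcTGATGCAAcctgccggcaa
The ASNS match begins 68 bases before the RefSeq start at position 97872408 and lies in the 5′ untranslated exon of 3 GENCODE 29 transcripts, which start farther upstream. The CHAC1 match, on the opposite strand, begins 209 bases before the start at 40953471 and lies in the untranslated part of an exon of 2 longer GENCODE 29 transcripts. The CEBPG match begins 42 bases before the second annotated start at 33374113 and lies in an intron of the longer GENCODE 29 transcript.

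In levels per transcript length, the 10 genes ran from abundant to listed at 0, in the same order in both libraries for the genes with a TPM above 0 in both. In the unexposed library the deposited TPM was 446 for ATF4, 337 for DDIT4, 50 for CEBPG, 33 for ATF5, 26 for DDIT3, 24 for TRIB3, 21 for PPP1R15A, 14 for SESN2, 2 for ASNS and 0 for CHAC1. Exact Poisson intervals, which leave the rounding of the TPM aside, overlapped between neighbours in this order only for DDIT3 (23.8 to 28.3) and TRIB3 (22.7 to 25.4), and in the exposed library, at 29 (26.6 to 31.5) and 23 (21.7 to 24.4), these did not overlap either. ATF4 was thus among the most abundant transcripts, with a mean TPM over both libraries at percentile 97.4 of the 13665 genes that had at least 20 reads summed over the libraries and were tested.

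**Figure D1:**
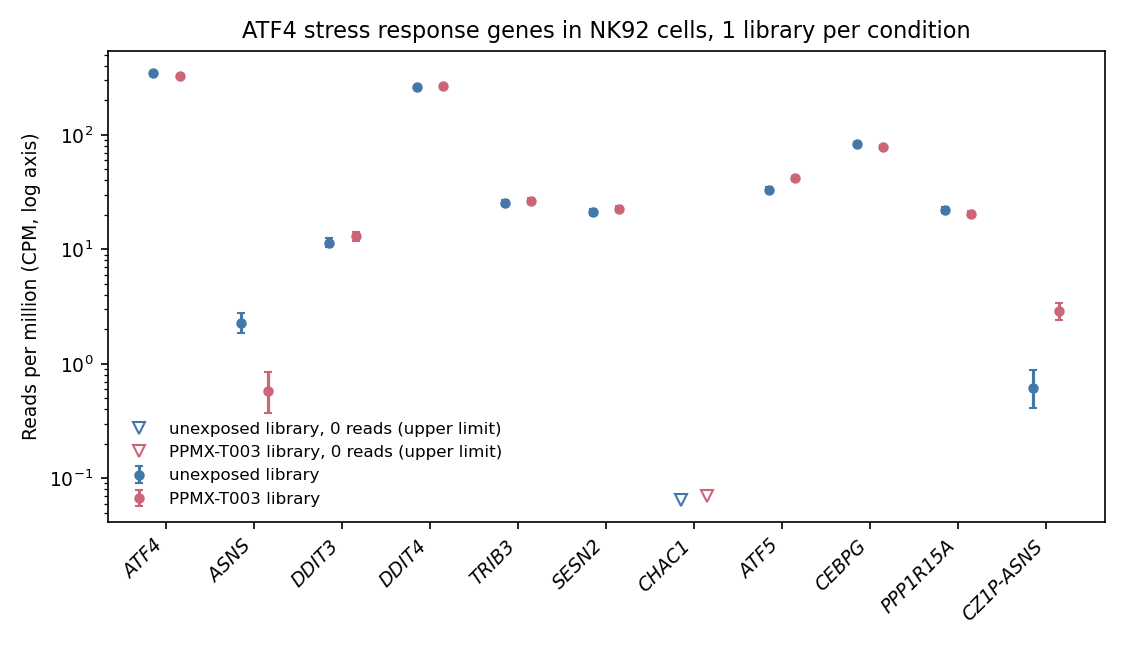
Level of each gene as CPM (log axis) in the unexposed (blue) and the PPMX-T003 library (red), with exact 95% Poisson intervals, and open triangles at the limit of 3 reads where a library had 0 reads. CPM is not divided by length, so the pair of points of a gene can be compared and not the genes with each other. The pairs lie close together except for ASNS, which is lower, and CZ1P-ASNS, which is higher, in the exposed library.

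The genes went in both directions, and 8 of the 9 tested differed by less than 2-fold between the libraries. Of the 9 genes tested, 5 were higher and 4 lower in the exposed library, as 6785 and 6880 of all 13665 tested genes were, with a median log2 fold change of 0.02, against -0.0020 over all genes tested, and this median was -0.05 after removal of the fit on length and GC content. None was at least 2-fold higher, as 1.27% of all tested genes were, and 1, ASNS, was at least 2-fold lower, as 1.38% were. With the reads of ASNS and CZ1P-ASNS summed, 0 genes passed 2-fold and ASNS was at 0.25 in place of -1.90, so its place in the counts of this paragraph rests on how reads were divided between these rows. The interval lay above 0 for ATF5 and DDIT3, against 21.8% of all tested genes, and below 0 for ATF4, CEBPG and ASNS, against 23.9%. Among genes of like abundance (the same 1 of 10 groups ranked by mean CPM), ASNS and ATF5 lay outside the central 95% of log2 fold changes, as did 5.12% of all tested genes. The remaining 7 genes lay inside it. The 2-fold shares of all tested genes rest mostly on genes with fewer than 200 reads. With at least 200 reads asked, 13 of all genes were 2-fold higher and 8 lower, against 173 and 188. Of the 9 tested ATF4 stress response genes, 8 had that many reads, so those shares are from genes of mostly lower abundance.

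**Figure D2:**
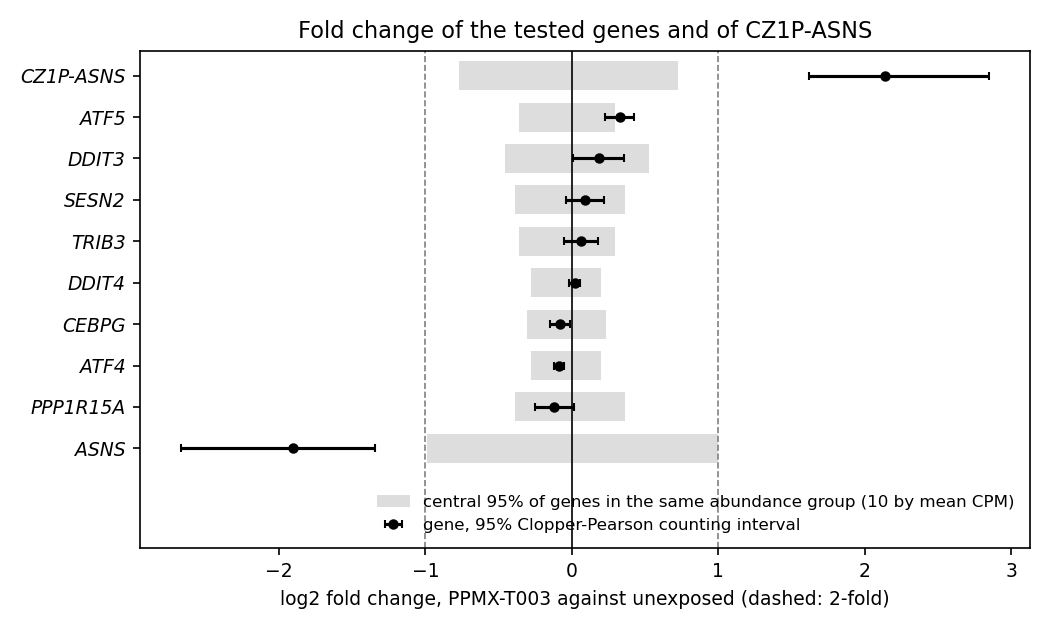
Log2 fold change of the 9 tested genes and of CZ1P-ASNS, exposed against unexposed, with 95% Clopper-Pearson counting intervals (black) over the central 95% of genes in the same abundance group (grey), and dashed lines at 2-fold. Apart from ASNS at -1.90 and CZ1P-ASNS at 2.14, the genes lie between -0.12 and 0.33.

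Among the transcription factors, ATF5 stood higher and ATF4 slightly lower in the exposed cells. ATF4 (Gene ID 468, chr22:39520559-39522686, plus strand) had 16297 reads in the unexposed and 14121 in the exposed library, or 348 and 327 CPM, and its log2 fold change of -0.09 (interval -0.12 to -0.06) lay at percentile 32.8 of all tested genes. The deposited TPM gave the same direction, 446 and 402. The 4 ATF4 pseudogenes listed, which resemble its mRNA, held 49 and 42 reads together. ATF5 (Gene ID 22809, chr19:49928906-49933935, plus strand), a bZIP factor made under stress in a way much like ATF4, had 1558 and 1801 reads, 33.3 and 41.7 CPM and a deposited TPM of 33 and 40. Its log2 fold change of 0.33 (0.23 to 0.43) lay at percentile 90.8, just above the range of -0.36 to 0.29 in its abundance group, and was 0.19 after removal of the fit on length and GC content. Its start shares 599 bases with the opposite-strand genes NUP62 (12725 and 12493 reads, log2 fold change 0.09) and IL4I1 (14 and 28 reads, 1.01). The kit kept strand, but whether the counting used it is not given in the sources used here, so reads of these genes may not be cleanly separated.

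The dimer partners differed in direction by small amounts. CEBPG (Gene ID 1054, chr19:33373709-33382686, plus strand), the C/EBP protein that pairs with ATF4 on amino acid response genes, had 3909 and 3408 reads, 83.5 and 79.0 CPM and a TPM of 50 and 46. Its log2 fold change was -0.08 (-0.15 to -0.01), and 0.03 once the fit on length and GC content was removed. DDIT3 (Gene ID 1649, chr12:57516588-57520517, minus strand) encodes CHOP, which links prolonged stress to cell death. It had 536 and 561 reads, 11.5 and 13.0 CPM and a TPM of 26 and 29, a log2 fold change of 0.18 (0.01 to 0.36) at percentile 81.7. The interval held 0 under median-of-ratios scaling. The last 65 bases of MARS1, on the opposite strand (9749 and 8561 reads, -0.07), overlap the DDIT3 end, and RefSeq also places LOC128125814, with no row in the table, on 2769 bases inside DDIT3.

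ASNS, asparagine synthetase and a standard readout of amino acid shortage, was low in these cells and was the member with the lowest fold change. It had 107 reads in the unexposed and 25 in the exposed library, 2.29 and 0.579 CPM and a deposited TPM of 2 and 0. The log2 fold change of -1.90 (-2.67 to -1.34) lay at percentile 0.304 and outside the -0.99 to 0.99 range of its abundance group. CZ1P-ASNS, a long noncoding readthrough gene on the same strand, showed the reverse, with 29 and 124 reads, 0.620 and 2.87 CPM and a TPM of 0 and 2. Its log2 fold change was 2.14 (1.62 to 2.85), at percentile 99.8. ASNS (Gene ID 440) spans chr7:97851677-97928441 and CZ1P-ASNS (Gene ID 107986827) chr7:97852117-97972358, so that 76325 bases lie in both spans, and reads from shared exons are divided between the rows by an estimate.

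Summed over ASNS and CZ1P-ASNS, the reads were 136 in the unexposed and 149 in the exposed library, or 2.91 and 3.45 CPM. The log2 fold change of the sum was 0.25 with an interval of -0.10 to 0.60, which holds 0. The division of the reads between these rows differed between the libraries. CZ1P-ASNS took 21.3% of them (exact 95% interval 14.8% to 29.2%) in the unexposed and 83.2% (76.2% to 88.8%) in the exposed library. The reads of ASNS changed by -82 and those of CZ1P-ASNS by 95. A further row, the transcribed pseudogene CCZ1P-OR7E38P (986 and 927 reads, log2 fold change 0.03), overlaps the first 5951 bases of CZ1P-ASNS, outside ASNS. Its span reaches the same outer position, 97972358, at which CZ1P-ASNS starts, and it was not part of the sum. Whether transcripts of the locus changed or only the estimate that divides their reads cannot be told apart from the deposited counts, so neither fold change is read as a change of the gene.

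The readthrough row starts at position 97972358, 99950 bases upstream of the RefSeq start of ASNS beside which the motif was found. The 250 bases before this start (chr7:97972359-97972608, minus strand, GRCh38.p14, 5′ to 3′) are shown because CZ1P-ASNS is annotated to begin after them and not at the ASNS promoter, and they hold no match to the motif.
CZ1P-ASNS: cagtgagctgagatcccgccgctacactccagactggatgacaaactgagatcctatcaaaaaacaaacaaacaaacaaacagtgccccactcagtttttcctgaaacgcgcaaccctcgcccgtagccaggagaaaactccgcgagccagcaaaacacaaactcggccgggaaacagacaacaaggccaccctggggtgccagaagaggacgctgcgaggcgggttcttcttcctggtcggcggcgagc

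CHAC1 (Gene ID 79094, chr15:40953471-40956512, plus strand), which breaks down glutathione and is among the strongest ATF4 targets in many cells, had 0 reads in both libraries. With 3 reads as the limit that a count of 0 allows, this is up to 0.0641 CPM in the unexposed and 0.0695 CPM in the exposed library by counting error alone, and no fold change is given. The limit does not cover the estimate by which StringTie assigns reads, so the 0 is not read as absence of CHAC1 RNA. The same holds for every other gene given here with 0 reads. CHAC2, its close relative that is expressed without stress, had 1306 and 1033 reads (log2 fold change -0.22, interval -0.34 to -0.10).

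The genes that feed back on growth and translation were nearly level. DDIT4 (Gene ID 54541, chr10:72273924-72276036, plus strand), which encodes the mTORC1 inhibitor REDD1, was abundant at 12250 and 11434 reads, 262 and 265 CPM and a TPM of 337 and 329. Its log2 fold change was 0.02 (-0.02 to 0.05). SESN2 (Gene ID 83667, chr1:28259518-28282491, plus strand), a leucine sensor that also restrains mTORC1, had 990 and 970 reads, 21.2 and 22.5 CPM, a TPM of 14 in both libraries and a log2 fold change of 0.09 (-0.04 to 0.22). TRIB3 (Gene ID 57761, chr20:380760-397559, plus strand), a pseudokinase that binds ATF4 and AKT, had 1194 and 1148 reads, 25.5 and 26.6 CPM, a TPM of 24 and 23 and a log2 fold change of 0.06 (-0.06 to 0.18). PPP1R15A (Gene ID 23645, chr19:48872421-48876058, plus strand) encodes GADD34, the stress-induced subunit that brings a phosphatase to eIF2. It had 1037 and 880 reads, 22.2 and 20.4 CPM, a TPM of 21 and 18 and a log2 fold change of -0.12 (-0.25 to 0.01). All 4 intervals held 0, and the outer bounds put any difference of these genes between the libraries within -0.25 and 0.22 on the log2 scale, as far as counting error goes. The signs of DDIT4 and TRIB3 turned with the deposited TPM and with the fit on length and GC content.

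The relatives of these genes are a list chosen after its values were seen, so their direction is given as a description only. Of 8 paralogs 6 were tested, and 1 was higher and 5 were lower, beside 6785 and 6880 of all 13665 tested genes. The median was -0.26, and none passed 2-fold, as 1.27% (higher) and 1.38% (lower) of all tested genes did. The interval lay above 0 for 1 and below 0 for 5, against 21.8% and 23.9% of all tested genes. The most abundant by TPM was PPP1R15B, the constitutive counterpart of PPP1R15A, with 6060 and 4435 reads and a log2 fold change of -0.33 (-0.39 to -0.28). TRIB1 had 150 and 77 reads (-0.83, interval -1.26 to -0.44), SESN1, a p53 target, 667 and 507 (-0.28) and TRIB2 998 and 780 (-0.24). GGACT, whose protein belongs to the same structural family as CHAC1, had 49 and 76 reads (0.73). SESN3 and DDIT4L had 0 reads in both libraries.

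Upstream of ATF4, the kinases and regulators of eIF2 had reads, except that EIF2AK4 was listed at 0. For this and the following lists, 21.8% of all tested genes had an interval above 0 and 23.9% below 0, and intervals are narrower for genes with more reads. Of 15 genes 14 were tested, 5 were higher and 9 lower, with 3 intervals above and 6 below 0, none by 2-fold, with a median of -0.04, and the most abundant was the phosphatase gene PPP1CA (398 and 439 TPM, log2 fold change 0.20). EIF2AK1 had 6302 and 5814 reads and a log2 fold change of 0.00 (-0.05 to 0.05), and the relay genes DELE1 and OMA1 were at 0.10 and 0.12. EIF2AK3 was at -0.05 (-0.13 to 0.04). EIF2AK2 had 9781 and 6818 reads and changed by -0.40 (-0.45 to -0.36). With PPP1R15B (-0.33) and the eIF2B subunit gene EIF2B5 (-0.24) it had the intervals farthest from 0 in this list. PPP1R15B is counted both here and among the paralogs. EIF2AK4, the GCN2 gene, was listed at 0 reads in both libraries, and as for CHAC1, this is not read as absence of its RNA.

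Other bZIP factors, among them partners of ATF4, went in both directions. Of 18 genes 15 were tested, 5 were higher and 10 lower, none by 2-fold, and the median was -0.07. JUND was the most abundant (167 and 170 TPM, 0.08). BATF, a lymphocyte factor, had 1804 and 2032 reads (0.29, interval 0.20 to 0.38), JUN was at 0.21 and ATF2 at -0.26. The lowest values were those of CEBPD, a C/EBP factor with 81 and 50 reads (-0.56, interval -1.12 to -0.05), and CREBRF with 159 and 112 reads (-0.38, interval -0.75 to -0.03). Of the 15 intervals 3 lay above 0 and 6 below 0. ATF3, itself a target of ATF4, had 274 and 230 reads and a log2 fold change of -0.13 (-0.39 to 0.12). CEBPA, CEBPE and JDP2 had 0 reads.

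The metabolic targets of ATF4 are given beside the 6880 of 13665 tested genes that were lower in the exposed library. Among 14 genes of amino acid synthesis 11 were tested, 4 were higher and 7 lower, with 1 interval above and 4 below 0, none by 2-fold, and the median was -0.03. SHMT2, of mitochondrial serine and folate metabolism, was the most abundant (285 and 268 TPM, -0.03). The branched-chain transaminase gene BCAT1 (-0.35), the serine pathway gene PSAT1 (-0.25) and GPT2 (-0.25) had the intervals farthest from 0. PHGDH, the enzyme that begins serine synthesis, ALDH1L2 and CBS were listed at 0 reads, which is not read as absence of their RNA. Of 13 tRNA synthetase and tRNA export genes all were tested, 3 were higher and 10 lower, with 1 interval above and 9 below 0, and the median was -0.08, with all genes between -0.17 and 0.06. YARS1 was the most abundant (324 and 315 TPM, 0.00), and XPOT (-0.17), LARS1 (-0.15) and TARS1 (-0.14) had the intervals farthest from 0.

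Amino acid transporter genes included SLC7A11 and SLC38A2, whose intervals lay farther from 0 than those of any tested gene in the other target lists. Of 12 genes 9 were tested, 3 were higher and 6 lower, with 1 interval above and 5 below 0, none by 2-fold, and the median was -0.07. SLC7A11, the cystine importer, had 1460 and 892 reads and a log2 fold change of -0.59 (-0.72 to -0.47). SLC38A2, which imports small neutral amino acids and is induced in amino acid shortage, had 3912 and 2481 reads (-0.54, interval -0.61 to -0.47). SLC38A1 had 21985 and 17214 reads (-0.24). The most abundant by TPM, SLC1A5, was at 0.01, and SLC7A5 and SLC3A2, which together form the LAT1 transporter, were at -0.08 and 0.05. SLC7A3, SLC6A9 and SLC36A4 had 0 reads.

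The remaining stress targets went in both directions. Of 21 genes 14 were tested, 6 were higher and 8 lower, with 4 intervals above and 4 below 0, none by 2-fold, and the median was -0.03. TXNIP was the most abundant (112 and 127 TPM, 0.24). The autophagy receptor gene SQSTM1 had 1804 and 2052 reads (0.30, interval 0.21 to 0.40), and the cell death genes PMAIP1 (-0.27) and TNFRSF10B, a death receptor that CHOP can induce (-0.31), were lower. GDF15, a secreted stress factor, had 0 and 7 reads, under the 20 reads asked of a tested gene. FGF21, NUPR1, VLDLR, ADM2 and CLIC4 had 0 reads.

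The neighbouring branches of the unfolded protein response, which run through ATF6 and through XBP1, were described together as 1 list for comparison. All 15 genes of the list were tested, 11 were higher and 4 lower, beside 6785 and 6880 of all 13665 tested genes. The median was 0.08, and the branches were not separated. None passed 2-fold, and 11 intervals lay above and 4 below 0. The chaperone gene CALR was the most abundant (1468 and 1621 TPM, 0.20, interval 0.18 to 0.21), HSPA5, which encodes BiP, was at 0.21 (0.19 to 0.23) and CRELD2 at 0.47 (0.33 to 0.61). In contrast, EDEM1 was at -0.22 and DNAJB9 at -0.24.

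Removal of the fit on length and GC content moved several of these values. Among the ATF4 stress response genes SESN2 was then at 0.04. The list medians became 0.01 for the kinases and regulators of eIF2, -0.11 for the bZIP factors and -0.12 for amino acid synthesis. They were -0.08 for the transporters, -0.05 for the tRNA synthetases and -0.03 for the remaining stress targets. For the ATF6 and XBP1 branches the median was 0.08, and for the paralogs -0.20. SLC7A11 was then at -0.38, SLC38A2 at -0.41 and SLC38A1 at -0.14. SLC7A5 was at -0.12 and SHMT2 at -0.14. PPP1R15B was at -0.22, SESN1 at -0.18, CHAC2 at -0.11, XPOT at -0.10 and LARS1 at -0.05. BATF was at 0.19, SQSTM1 at 0.17 and PPP1CA at 0.09, while DNAJB9 was at -0.13. Among the NK markers, NKG7 was at 0.03 and GNLY at 0.12. JUND (-0.10), EIF2AK1 (-0.03), EIF2AK3 (0.07), SLC3A2 (-0.02), SLC1A5 (-0.06) and YARS1 (-0.0040), all close to 0 before, turned in sign.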

How the data were processed

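Per the labels and the study's methods, the authors trimmed reads with Trimmomatic 0.38, mapped them with HISAT2 2.2.0 to hg38, counted them with StringTie 2.1.3b and named edgeR 3.17 for the comparison. The deposited read counts are whole numbers written with digit-group commas, which were removed. The authors had rounded the FPKM and TPM they deposited, so these were used as score values. Rows with the same symbol were summed, which left 46425 symbols.

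Libraries were scaled by TMM, with trims of 30% on log ratios and 5% on mean level, and no count model was fitted. CPM are counts per 1000000 scaled reads. The tools were matplotlib 3.10.9, statsmodels 0.14.6, scipy 1.17.1, pandas 2.3.3 and numpy 2.4.6 under Python 3.11.15. Genes with at least 20 reads summed were tested, and at most 3 reads in a library counted as not detected. Transcript length and GC content, medians over protein-coding transcripts of GENCODE 29, were known for 92.7% of tested genes and entered a robust regression over 10191 genes with at least 200 reads. The median GC content was 57.7% in the 9 tested members and 49.4% in all tested genes. The scaling, fold changes and intervals were run on simulated Poisson counts with planted changes. The simulation held no differences between dishes and no overlapping rows, so it checks the code and not the error of these data. Alternatives were other scalings (median of ratios, library size, upper quartile), prior counts, filters and thresholds, the deposited TPM, summed ASNS rows, the regression and, chosen after seeing the data, its longest-transcript form, protein-coding genes alone, the genes without ASNS, overlapping neighbours and the paralogs.

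The members and lists were chosen with earlier results of these data known. All 10 members and CZ1P-ASNS are named, and from each other list the most abundant gene by TPM, the 3 genes whose interval bound nearest to 0 was largest and every gene past 2-fold. Other genes, among them those at 0 reads, were named for their known roles after their values were seen. The result of 1 marker gene is not reported here. Likeness of pattern was not computed, since 2 libraries give 1 ratio.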

Additional observations from a re-analysis of the deposited data

How the results depend on the processing

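No paired analysis was possible because the design holds 1 library for each condition, and none could be left out. Summing ASNS and CZ1P-ASNS turned the ASNS log2 fold change to 0.25 and left 0 of the genes past 2-fold. With at least 200 reads asked, 0 of 8 tested genes passed, because ASNS was no longer tested. Under the other scalings and prior counts, each of the 9 tested ATF4 stress response genes and CZ1P-ASNS kept its direction. Directions did turn among other genes. Of all 13665 tested genes, 6785 were higher in the main setting, 6544 under median-of-ratios and 7101 under upper quartile scaling. With the deposited TPM and a pseudocount of 1, ATF4 was at -0.15, DDIT4 at -0.035, TRIB3 at -0.059, PPP1R15A at -0.21, SESN2 at 0 and CZ1P-ASNS at 1.58. With the fit on length and GC content removed, ATF4 was at -0.13, DDIT4 at -0.049, TRIB3 at -0.054, ATF5 at 0.19 and CEBPG turned to 0.033. With the longest transcripts ATF4 was at -0.18, DDIT4 at -0.091, PPP1R15A at -0.21 and ATF5 at 0.21. In that form DDIT3 was at 0.10 and SESN2 at 0.017, and CEBPG, at -0.017, did not turn. The median of the tested ATF4 stress response genes ran from -0.059 (TPM) to 0.060 (ASNS rows summed), and was 0.039 without ASNS. Why these values moved was not tested, apart from the filter. Of all genes, 538 were higher and 525 lower at 1.5-fold. At 2-fold, 1448 and 1033 were with at least 1 read, 13 and 8 with at least 200 reads, and 77 and 87 among protein-coding genes alone, against 173 and 188 in the main setting, of which 20 and 24 had at most 3 reads in the lower library. ASNS and CHAC1 had the fewest reads of the 10 genes, and the value of ASNS depends also on how reads were divided with CZ1P-ASNS.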
